A study of Mus musculus with 12 samples.

Results

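Neuropeptide precursors are the secreted proteins from which neurons cut their peptide transmitters. The 32 genes described here were taken as a list of named precursor genes and granins. All 32 were found among the 55536 GENCODE genes counted in the series. RNA-Seq counts were available for 12 libraries from 1-month-old mice, with 3 WT cerebella, 3 *Snx14*-KO cerebella, 3 WT cerebral cortices and 3 *Snx14*-KO cortices. The *Snx14*-KO mice were homozygous, in every cell of the body, for a single-base deletion made with CRISPR-Cas9 in C57BL/6J mice that shifts the reading frame of *Snx14*. All knockouts carried this 1 allele, and the labels give no litters. The titles number the mice of each genotype alike in both tissues, which was read as 1 cerebellum and 1 cortex from each mouse. The p-values below thus rest on the spread between 3 mice of a group. The design lets each precursor be compared between the regions of WT mice and between genotypes in each region.

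A neuropeptide starts as a long precursor that enters the secretory pathway. It is sorted into dense-core vesicles together with granins, cut by prohormone convertases, trimmed by carboxypeptidase E and often amidated before release. Most of the mature peptides act slowly, through G protein-coupled receptors. In the cerebral cortex, somatostatin, vasoactive intestinal peptide (VIP), neuropeptide Y and cholecystokinin are made by classes of inhibitory interneurons, and the first of these serve as their markers. Cholecystokinin is made by excitatory neurons as well.

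The counts on genes summed to between 16672589 and 19887427 per library. *Snx14* was lower in all 3 *Snx14*-KO libraries of each tissue, with a log2 fold change of -2.57 (SE 0.0793, edgeR adjusted p = 1.69e-06) in cerebellum and -2.80 (SE 0.0951, edgeR adjusted p = 3.19e-08) in cortex. Markers of granule and Purkinje cells were high in all 6 cerebella (summed levels of 2576 to 3608 and 10050 to 13450 CPM) and markers of cortical excitatory neurons in all 6 cortices (1821 to 2141 CPM). Levels per library are CPM (counts scaled to library size) after TMM normalization, given in the order of mouse 1, 2 and 3 throughout. A total of 3 counts, the limit that a count of 0 allows, corresponds to 0.143 to 0.187 CPM. This limit covers counting error only. The labels give no batch and no sex for single libraries.

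Some libraries stood apart in genes that mark neighbouring brain tissue. A list of 15 genes, the glutamate transporter gene *Slc17a6* and transcription factors that mark midbrain and adjacent nuclei, was assembled after the values were seen. It summed to 66.9, 66.7 and 60.7 CPM in the WT cerebella and to 229, 63.6 and 230.2 CPM in the *Snx14*-KO cerebella. *Snx14*-KO cerebella 1 and 3 were thus above the other 4 cerebella. *Lhx9*, one of the list, was at 1.45, 0.404 and 1.07 CPM in WT and 19.6, 0.496 and 21.4 CPM in *Snx14*-KO cerebella. Of the 15 genes, 0 to 5 had no count in a cerebellum. The pituitary hormone gene *Prl* was at 7.22, 0 and 0 CPM in the *Snx14*-KO cerebella, so that mouse 1 stood apart. Among the cortices, 10 genes of striatal projection neurons summed to 286, 646 and 323 CPM in WT and 303, 266 and 239 CPM in *Snx14*-KO, so that WT cortex 2 lay apart. WT cortex 1 lay apart in choroid plexus genes, with 138.8 CPM against 8.45 to 20.3 CPM in the other cortices. The summed cortical excitatory genes in the *Snx14*-KO cerebella (290 to 379 CPM) were not above those in all WT cerebella (338 to 445 CPM). Most of each sum was *Slc17a7*, at 374, 307 and 277 CPM in WT and 245.5, 311 and 221 CPM in *Snx14*-KO cerebella. The sum thus mainly follows this gene and cannot show whether cortical tissue was present. Choroid plexus genes varied from 82.5 to 7392 CPM among the cerebella and brainstem genes from 1.14 to 3.78 CPM, and neither set *Snx14*-KO cerebella 1 and 3 apart. The main results that rest on these libraries are given with and without them.

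For 24 of the 32 precursors, a RefSeq promoter window (GRCm38.p6) of 250 bases before to 50 bases after a start site was at hand. The cyclic AMP response element, whose full palindrome is TGACGTCA, is a DNA element bound by CREB and is known from the somatostatin promoter. On either strand it was found in 5 of the 24 precursors (20.8%) and in 2.03% of all 27025 genes with a window. Its shorter form TGACG, which the palindrome contains, was found on either strand in 16 of the 24 (66.7%) and in 23.0% of all genes. The AP-1 letters TGACTCA were in 1 of the 24 (4.17%, against 5.95% of all genes), and TATAAA on the sense strand was in 6 (25%, against 9.77%). These are matches of letters, with no test and no measure of binding. The 5 precursors with the full element were *Sst*, *Cartpt*, *Scg2*, *Chgb* and *Ucn*, and the element with its flanks is shown because 4 of them are among the genes described in detail here. The sequences are RefSeq reference sequence on the gene's own strand, and capitals mark the element. Apart from that of *Ucn*, each window lies in exon sequence of GENCODE vM21, although it is upstream of the RefSeq start.
Sst, chr16:23890874-23890903, minus strand: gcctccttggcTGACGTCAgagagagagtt
Cartpt, chr13:99900777-99900806, minus strand: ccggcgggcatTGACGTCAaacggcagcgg
Scg2, chr1:79440076-79440105, minus strand: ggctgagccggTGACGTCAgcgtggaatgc
Chgb, chr2:132781559-132781588, plus strand: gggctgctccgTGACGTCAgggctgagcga
Ucn, chr5:31138921-31138950, minus strand: atgttcttcgcTGACGTCAgtcggagctgt
Between the end of the element and the RefSeq start site lay 40 bases in *Sst*, 36 in *Ucn*, 60 in *Scg2*, 64 in *Chgb* and 104 in *Cartpt*.

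To compare precursors with each other, levels were also expressed per length, as TPM (transcripts scaled by exon length and to a common total). The 32 precursors together reached 3902 ± 82.6 TPM (SD, n = 3) in WT cortex and 1303 ± 184 TPM (SD, n = 3) in WT cerebellum. In WT cortex, *Sst* had the highest mean level at 1065 ± 111 TPM (SD, n = 3), 27.3% of the summed level. It was followed by *Cck* at 898 ± 16.2 TPM, *Chgb* at 471 ± 63.6 TPM and *Npy* at 354 ± 40.3 TPM. In WT cerebellum the granin gene *Chgb* came first at 439 ± 87.7 TPM, 33.7% of the sum. *Penk* at 244 ± 33.1 TPM, *Scg2* at 167 ± 23.9 TPM and *Cck* at 134 ± 21.5 TPM followed. *Sst*, first in cortex, was at 11.1 ± 1.06 TPM in WT cerebellum. *Ucn3*, an urocortin precursor, and *Calcb*, which encodes a second form of calcitonin gene-related peptide, were under 1 TPM in the mean of every group. *Ucn3* had 1 count in 1 library and *Calcb* at most 0.212 CPM, and neither is taken further. The other 30 are described with their values in each library.

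Most precursors were lower in WT cerebellum than in WT cortex, among them the markers of cortical interneurons. Of the 26 precursors with enough counts for the test, 2 were called higher in cerebellum (*Penk* and *Nxph4*) and 19 lower. A call needed an adjusted p under 0.05 together with a log2 fold change beyond 0.5 in either direction. Over all 18543 genes tested, 40.4% were called, 19.0% higher and 21.4% lower. Several of the 19, such as *Vip*, *Cort* and *Trh*, had almost no counts in cerebellum and passed the filter on low counts only through cortex, so that the share is not read against the background. The median log2 fold change, cerebellum minus cortex, was -2.0 over the 26 precursors and 0.02 over all genes tested, and -1.72 over the 32 without the filter. The 3 libraries of each region did not overlap for 23 of the 26, with 3 higher and 20 lower, against 31.6% and 32.7% of all genes. Because of the filter, this share is not read against the background either. In such bulk tissue, fewer cells of a type and less RNA per cell cannot be told apart.

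**Figure D1:**
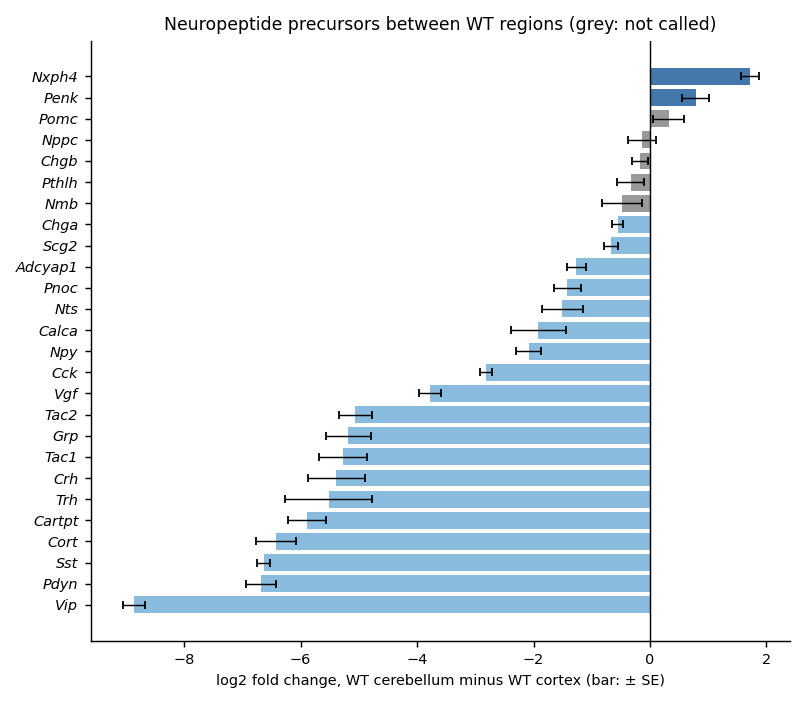
Log2 fold change between WT cerebellum and WT cortex for the 26 precursors tested, as bars with ± 1 SE from edgeR's fit of 3 libraries per region. Dark blue bars are called higher in cerebellum (*Nxph4*, 1.72, and *Penk*, 0.79), light blue bars are called lower (from *Chga*, -0.56, to *Vip*, -8.86), and grey bars are not called.

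The somatostatin family showed one of the widest gaps between the regions. *Sst*, the somatostatin precursor (chromosome 16, 23889573 to 23890958, GRCm38), was at 2.22, 2.71 and 2.36 CPM in the WT cerebella and at 256, 255 and 218 CPM in the WT cortices. Every cortex was far above every cerebellum, with a log2 fold change of -6.64 (SE 0.114, edgeR adjusted p = 6.69e-11). *Cort*, the cortistatin precursor, was at 0.0556, 0.0577 and 0.0537 CPM in cerebella, which was 1 count in each, and at 5.63, 5.32 and 5.24 CPM in cortices. Its fitted log2 fold change was -6.43 (SE 0.343, edgeR adjusted p = 5.99e-08). Summed counts gave a cortex to cerebellum ratio of 97.1, with an exact counting interval of 32.9 to 473.3.

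*Vip* and *Adcyap1*, the precursors of VIP and of pituitary adenylate cyclase-activating polypeptide, belong to one peptide family but differed in how steep the regional gap was. *Vip* was at 0.111, 0.0577 and 0.161 CPM in cerebella and 49.9, 58.7 and 56.6 CPM in cortices. Only 6 counts in all fell on it in the WT cerebella against 3026 in the cortices, a ratio of 494.5 with an exact counting interval of 226.9 to 1348. Its log2 fold change was the lowest among the precursors, at -8.86 (SE 0.194, edgeR adjusted p = 1.71e-10). *Adcyap1* was at 9.95, 9.17 and 6.87 CPM in cerebella and 17.6, 20.3 and 24.6 CPM in cortices. The regions did not overlap here either, but the log2 fold change was -1.26 (SE 0.169, edgeR adjusted p = 9.36e-05).

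The opioid precursors went different ways. *Penk*, which encodes the enkephalins (chromosome 4, 4133531 to 4138819, GRCm38), was at 124, 106 and 132 CPM in cerebella and 56.4, 105 and 49.2 CPM in cortices. All 3 cerebella lay above the cortices, though cortex 2, the library with more striatal transcripts, came close to the lowest cerebellum. The log2 fold change was 0.79 (SE 0.23, edgeR adjusted p = 0.0135), and without cortex 2 it was 1.19. Without cortex 1 it was 0.64 and without cortex 3 it was 0.57, and neither was called. By DESeq2 the adjusted p was 0.0655, so *Penk* was called by edgeR and not by DESeq2, which called 17.9% of all genes higher. Of its exon bases, 14.3% overlap *A830012C17Rik* on the opposite strand, and the counting did not separate strands. *Pdyn*, the dynorphin precursor, was at 0.334, 0.346 and 0.161 CPM in cerebella and 25.3, 35.6 and 27.1 CPM in cortices, a log2 fold change of -6.68 (SE 0.253, edgeR adjusted p = 5.15e-09). *Pnoc*, the nociceptin precursor, was at 2.11, 1.79 and 2.9 CPM in cerebella and 7.23, 6.12 and 4.95 CPM in cortices, a log2 fold change of -1.42 (SE 0.236, edgeR adjusted p = 4.45e-04). For both, every cortex lay above every cerebellum. *Pomc*, which encodes the melanocortins and beta-endorphin, was low in both regions, at 1.61, 1.44 and 1.5 CPM in cerebella and 1.33, 1.18 and 1.14 CPM in cortices. The libraries did not overlap, yet its log2 fold change of 0.32 (SE 0.269, edgeR adjusted p = 0.326) did not pass the test.

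Both tachykinin precursors were lower in cerebellum. *Tac1*, the precursor of substance P and neurokinin A (chromosome 6, 7554879 to 7565834, GRCm38), was at 0.50, 0.635 and 0.483 CPM in cerebella and 17.1, 32.9 and 13.2 CPM in cortices. The cortices themselves spread widely, with cortex 2 the highest. The log2 fold change was -5.27 (SE 0.407, edgeR adjusted p = 1.31e-06), and -4.80 without cortex 2. *Tac2*, the neurokinin B precursor, was at 0.167, 0.173 and 0.161 CPM in cerebella and 5.63, 5.53 and 6.26 CPM in cortices. Its replicates were close to each other in both regions, and the log2 fold change was -5.06 (SE 0.281, edgeR adjusted p = 9.36e-08).

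Of the interneuron peptides with strong expression in both regions, *Npy*, the neuropeptide Y precursor, was at 20, 16.1 and 8.81 CPM in cerebella and 67.1, 67 and 56.2 CPM in cortices. The cerebella spread widely among themselves but stayed below all cortices, with a log2 fold change of -2.08 (SE 0.22, edgeR adjusted p = 1.57e-05). *Cck*, the cholecystokinin precursor, was at 60.6, 44.3 and 53.4 CPM in cerebella and 354, 376 and 384 CPM in cortices. Its log2 fold change was -2.81 (SE 0.105, edgeR adjusted p = 4.95e-09), with no overlap between the regions.

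Among the releasing hormones and hypothalamic-type peptides, *Crh*, the precursor of corticotropin-releasing hormone, was at 0.334, 0 and 0.215 CPM in cerebella and 8.18, 5.58 and 10.4 CPM in cortices. The log2 fold change was -5.38 (SE 0.492, edgeR adjusted p = 4.70e-06), and every cortex was above every cerebellum. *Trh*, the thyrotropin-releasing hormone precursor, had 1 count over the 3 WT cerebella and was at 1.27, 1.13 and 1.08 CPM in cortices. The ratio of summed counts was 62.8, with an exact counting interval of 10.9 to 2517. *Cartpt*, the CART precursor, was at 0.111, 0.115 and 0.0537 CPM in cerebella and 5.53, 6.44 and 5.75 CPM in cortices, a log2 fold change of -5.89 (SE 0.328, edgeR adjusted p = 9.22e-08). *Nts*, the neurotensin precursor, was at 0.889, 0.866 and 1.24 CPM in cerebella and 4.25, 2.2 and 2.11 CPM in cortices. It was lower in all cerebella, with a log2 fold change of -1.51 (SE 0.35, edgeR adjusted p = 0.00372).

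The bombesin-like precursors differed in behaviour. *Grp*, which encodes gastrin-releasing peptide, was at 0.111, 0.115 and 0.537 CPM in cerebella and 11.3, 9.23 and 8.54 CPM in cortices. Cerebellum 3 was above the other cerebella but far below the cortices, and the regions differed by a log2 fold change of -5.18 (SE 0.386, edgeR adjusted p = 9.54e-07). *Nmb*, the neuromedin B precursor, was at 1.89, 0.75 and 1.24 CPM in cerebella and 1.54, 1.99 and 1.94 CPM in cortices. These overlapped, and the log2 fold change of -0.49 (SE 0.345, edgeR adjusted p = 0.25) did not pass. Of the *Nmb* exon bases, 20.6% are shared with *Sec11a* on the same strand.

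*Calca*, the precursor of calcitonin and calcitonin gene-related peptide, was low, at 0.50, 0.346 and 0.107 CPM in cerebella and 1.38, 1.13 and 1.14 CPM in cortices. All cortices were above all cerebella, with a log2 fold change of -1.92 (SE 0.469, edgeR adjusted p = 0.00481). *Nppc*, the C-type natriuretic peptide precursor, was at 5.78, 3.58 and 3.54 CPM in cerebella and 3.83, 5.21 and 5.24 CPM in cortices. *Pthlh*, which encodes parathyroid hormone-related peptide, was at 1.95, 1.73 and 2.15 CPM in cerebella and 2.44, 2.74 and 2.16 CPM in cortices. Neither passed the test, with log2 fold changes of -0.14 and -0.33 (edgeR adjusted p = 0.633 and 0.253). The *Nppc* libraries overlapped, while those of *Pthlh* were apart by a narrow margin.

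*Nxph4* encodes a neurexophilin, a secreted protein that binds neurexins. It was at 17.7, 15.3 and 13.2 CPM in cerebella and 4.73, 4.83 and 4.5 CPM in cortices. Among the 26 precursors that passed the filter on low counts it had the highest value in cerebellum relative to cortex, at a log2 fold change of 1.72 (SE 0.149, edgeR adjusted p = 3.34e-06), and no cerebellum overlapped a cortex.

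The granins and VGF are acidic cargo proteins of dense-core vesicles and are themselves cut into peptides. *Chgb*, *Scg2* and *Chga* were among the most abundant precursors in cerebellum and differed little between the regions, whereas *Vgf* differed widely. *Chgb*, chromogranin B, was at 447, 302 and 344 CPM in cerebella and 388, 364 and 476 CPM in cortices. These ranges overlapped, and the log2 fold change of -0.16 (SE 0.139, edgeR adjusted p = 0.335) did not pass. *Chga*, chromogranin A, was at 112, 95 and 91.8 CPM in cerebella and 144, 132 and 164 CPM in cortices, a log2 fold change of -0.56 (SE 0.0966, edgeR adjusted p = 6.02e-04). Without WT cortex 3 its value was -0.48, and it was no longer called. *Scg2*, secretogranin II, was at 145, 109.6 and 127 CPM in cerebella and 205, 171 and 234 CPM in cortices, a log2 fold change of -0.67 (SE 0.123, edgeR adjusted p = 8.47e-04). *Vgf*, a neurotrophin-inducible gene, was at 24.4, 14.1 and 18.6 CPM in cerebella and 268, 216 and 302 CPM in cortices. Its log2 fold change was -3.78 (SE 0.184, edgeR adjusted p = 3.65e-08), and every cortex was far above every cerebellum.

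The remaining precursors were too low for the regional test. *Ucn*, the urocortin precursor, had no count in the 3 WT cerebella and was at 0.212, 0.107 and 0.228 CPM in the cortices. *Nppa*, which encodes atrial natriuretic peptide, was at 0.167, 0.346 and 0.161 CPM in cerebella and 0.531, 0.537 and 0.512 CPM in cortices, and 61.5% of its exon bases overlap *Gm13054* on the opposite strand. *Gal*, the galanin precursor, was at 0.556, 0.173 and 1.18 CPM in cerebella and 0.106, 0.0537 and 0.285 CPM in cortices. *Npb*, the neuropeptide B precursor, was at 0.167, 1.04 and 0.215 CPM in cerebella and 0.531, 0.322 and 0.0569 CPM in cortices. Many of these values lie near the limit that a count of 0 allows. With no filter on low counts, *Gal* was called higher in cerebellum, at a log2 fold change of 2.08 (edgeR adjusted p = 0.0141), and *Ucn* lower, while *Nppa* and *Npb* were not called at this depth.

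The genes that cut, carry and receive the peptides were compared between the WT regions in the same fit, where 19.0% of all genes were called higher and 21.4% lower. Of 10 peptide-processing genes, 1 was called higher and 7 lower in WT cerebellum, with a median log2 fold change of -0.86. *Furin*, a convertase of the secretory pathway, was the one called higher, at 0.73 (SE 0.0865, edgeR adjusted p = 3.93e-05). *Pcsk2*, a prohormone convertase, was at -2.43 (SE 0.0956, edgeR adjusted p = 7.18e-09), and *Pam*, the amidating enzyme, was at -1.78 (SE 0.0823, edgeR adjusted p = 2.44e-08). Of 7 genes of dense-core vesicle formation and release, 1 was higher and 2 were lower, with a median of -0.35. *Cadps2*, a vesicle priming factor, was higher at 0.57 (SE 0.0786, edgeR adjusted p = 1.17e-04), and the vesicle membrane proteins *Ptprn* and *Ptprn2* were lower at -2.30 (SE 0.115, edgeR adjusted p = 4.50e-08) and -1.42 (SE 0.0668, edgeR adjusted p = 2.82e-08). Of the 33 peptide receptors tested, 4 were higher and 21 lower, with a median of -3.27, which was -1.99 without the filter on low counts. Several receptors had almost no counts in cerebellum and passed that filter only through cortex, so these counts are not read against the background. *Npr1*, the receptor of atrial natriuretic peptide, and *Vipr2*, a VIP receptor, were the highest in cerebellum, at 3.14 (SE 0.16, edgeR adjusted p = 4.92e-08) and 2.60 (SE 0.265, edgeR adjusted p = 1.15e-05). *Ntsr1*, a neurotensin receptor, and *Sstr4*, a somatostatin receptor, had 1, 1 and 3 and 3, 3 and 3 counts in the WT cerebella and were the lowest, at -6.70 (SE 0.307, edgeR adjusted p = 2.08e-08) and -5.81 (SE 0.288, edgeR adjusted p = 3.84e-08).

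In *Snx14*-KO cerebella, *Sst*, *Tac1*, *Grp* and some other precursors that are scarce in WT cerebellum were highest in mice 1 and 3. Mouse 2 was below these mice but also above every WT cerebellum for *Tac1* and *Vip* and, by a little, for *Sst* and *Grp*. Of the 20 precursors with enough counts for the test, 0 were called higher or lower by edgeR. Over all 18201 genes, 0.0% were called higher and 0.00549% lower, the 1 gene being *Snx14*. At an unadjusted p under 0.05, 6 of the 20 were higher and 0 lower, against 5.78% and 2.37% of all genes. *Tac1*, with 9, 11 and 9 counts in the WT cerebella, and *Grp*, with 2, 2 and 10, are among the 6. Both passed the filter on low counts only through the *Snx14*-KO cerebella, where they were higher. Neither this count nor the median below is thus read against that of all genes. DESeq2 called 2 precursors higher, *Tac1* and *Sst*, where it called 0.841% of all genes. Without *Snx14*-KO mouse 2, edgeR called 5 precursors higher (*Pdyn*, *Scg2*, *Sst*, *Tac1* and *Vip*) and 244 of 18649 genes higher and 10 lower. *Pdyn* and *Vip* were not among the 20. They entered this fit only through mice 1 and 3, where they were high, so these calls are not read against the background. The groups did not overlap for 5 of the 20, all higher, where this was so for 6.22% of all genes in that direction and 6.32% in the other. *Tac1* and *Grp* are among these 5, so this share is not read against the background either. The count of 6 was 4 without mouse 1, where 948 of 18561 genes were higher at this threshold. It was 11 of 23 without mouse 2, where 1350 of 18649 genes were higher. *Pdyn* and *Vip* are among the 11. The median log2 fold change was 0.40 over the 20 and 0.00 over all genes, and over the precursors it was 0.10 with mouse 2 alone, 0.26 without mouse 1 and 0.63 without mouse 2. The WT cerebella also served in the comparison between the regions, so the 2 sets of values are not independent.

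*Sst* was at 2.22, 2.71 and 2.36 CPM in WT and 34.3, 3.2 and 35.7 CPM in *Snx14*-KO cerebella. Mice 1 and 3 stood at 14.1 and 14.7 times the WT mean, and mouse 2 was just above the highest WT cerebellum. Its log2 fold change was 3.34 (SE 0.727, edgeR adjusted p = 0.207), with an unadjusted p of 0.00124 from the same fit. Left with mouse 2 alone, it was 0.40 (edgeR adjusted p = 1.000). By DESeq2, with all libraries, the adjusted p was 0.0285.

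*Tac1* was at 0.50, 0.635 and 0.483 CPM in WT and 8.13, 1.38 and 8.72 CPM in *Snx14*-KO cerebella. All 3 *Snx14*-KO libraries were above the WT libraries, with mice 1 and 3 about equal and mouse 2 far lower. This gave a log2 fold change of 3.5 (SE 0.648, edgeR adjusted p = 0.145), and with mouse 2 alone it was 1.35 (edgeR adjusted p = 1.000), with an unadjusted p under 0.05. By DESeq2 the adjusted p was 4.80e-07 with all libraries.

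*Vip* was at 0.111, 0.0577 and 0.161 CPM in WT and 3.01, 0.441 and 3.03 CPM in *Snx14*-KO cerebella, again with mice 1 and 3 highest. *Pdyn* was at 0.334, 0.346 and 0.161 CPM in WT and 2.25, 0.331 and 2.17 CPM in *Snx14*-KO cerebella, where mouse 2 lay within the WT range. *Cartpt* was at 0.111, 0.115 and 0.0537 CPM in WT and 0.478, 0.11 and 0.758 CPM in *Snx14*-KO cerebella. These 3 precursors did not pass the filter on low counts. Without that filter their log2 fold changes were 4.22 (edgeR adjusted p = 1.16e-04), 2.49 (edgeR adjusted p = 0.0142) and 2.21 (edgeR adjusted p = 0.384), and 329 of 31465 genes were then called higher. Mouse 2 was at 4.01 times the WT mean for *Vip*, 1.18 times for *Pdyn* and 1.18 times for *Cartpt*, from few counts.

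*Grp* was at 0.111, 0.115 and 0.537 CPM in WT and 1.91, 0.607 and 1.25 CPM in *Snx14*-KO cerebella. All *Snx14*-KO libraries were above WT, though mouse 2 only by a little. The log2 fold change was 2.27 (SE 0.664, edgeR adjusted p = 0.36), and 1.22 (edgeR adjusted p = 1.000) with mouse 2 alone.

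**Figure D2:**
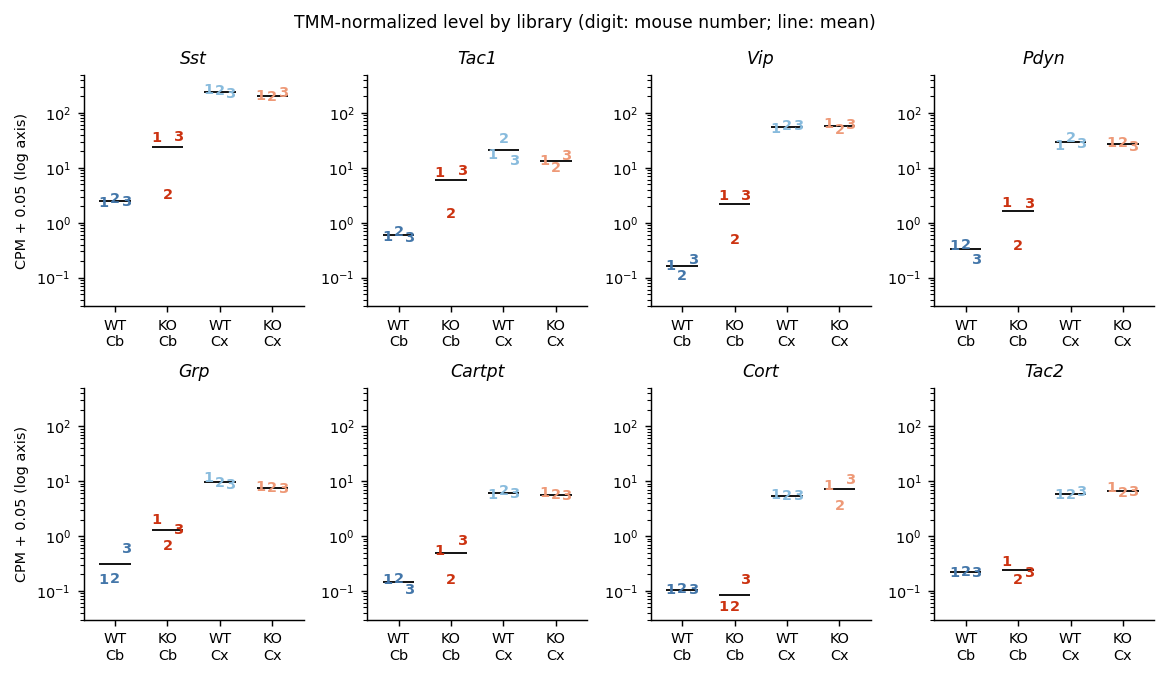
Level of 8 precursors in each library as CPM + 0.05 on a log axis, for WT and *Snx14*-KO (KO) cerebellum (Cb) and cortex (Cx), where each digit is a mouse and each line the group mean. In *Snx14*-KO cerebellum, mice 1 and 3 lie above mouse 2 for *Sst* (34.3 and 35.7 against 3.2 CPM), *Tac1*, *Vip*, *Pdyn*, *Grp* and *Cartpt*, while *Cort* and *Tac2* stay near the WT level.

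A description chosen after these values were seen counted the precursors for which *Snx14*-KO cerebella 1 and 3 were each at least 2 times the highest of the other 4 cerebella. It held for 6 of the 32, namely *Sst*, *Tac1*, *Vip*, *Pdyn*, *Grp* and *Cartpt*. Among the 20 tested it held for 3, and among all 18201 genes tested for 105 (0.577%). The excess over the WT mean was a different share of the WT cortex level for each precursor, from 5.27% to 36.0% in mouse 1 and from 5.31% to 38.9% in mouse 3. For *Tac1* it was 36.0% and 38.9%, for *Sst* 13.1% and 13.7%, and for *Vip* 5.27% and 5.31%. *Crh* and *Trh*, which are far higher in WT cortex than in WT cerebellum, had values above the WT mean from few counts. The excess of *Crh* was 3.08%, 2.53% and 2.44% of the WT cortex level in mice 1, 2 and 3. That of *Trh* was 23.2%, -1.54% and 3.12%. *Cort* and *Tac2*, also far higher in WT cortex, showed no such excess. *Cort* was at 0, 0 and 0.108 CPM and *Tac2* at 0.287, 0.11 and 0.163 CPM in the *Snx14*-KO cerebella.

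**Figure D3:**
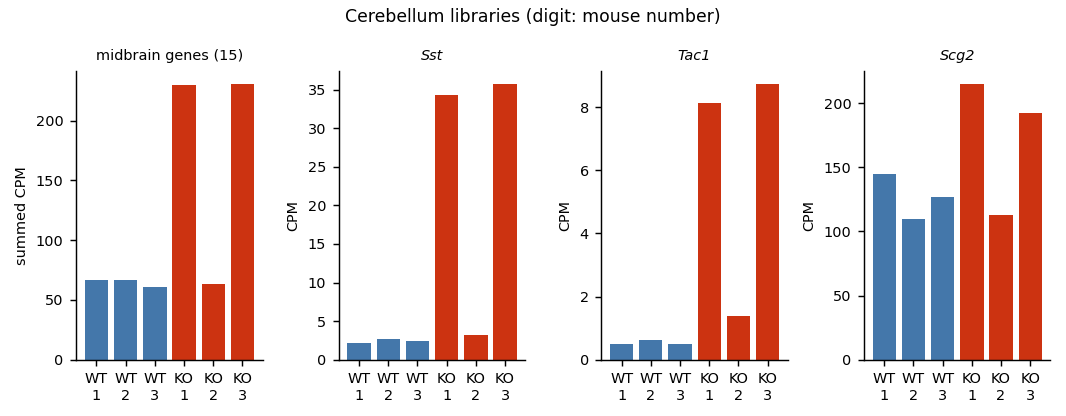
Summed CPM of the 15 midbrain genes, chosen after the values were seen, and CPM of *Sst*, *Tac1* and *Scg2* in the 3 WT (blue) and 3 *Snx14*-KO (red) cerebella, 1 bar for each library. *Snx14*-KO cerebella 1 and 3 have the highest bars in each panel (229 and 230.2 CPM for the midbrain genes), and *Snx14*-KO cerebellum 2 lies far below them.

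The same libraries, mice 1 and 3, held the high levels of the midbrain list, which summed to 229, 63.6 and 230.2 CPM against 60.7 to 66.9 CPM in WT. Because the list was chosen after the values were seen, its counts and median are a description and no test. Of its 7 tested genes 6 had a higher and 1 a lower mean in *Snx14*-KO cerebella. At an unadjusted p under 0.05 in edgeR, 5 of the 7 were higher, as were 5.78% of all genes, and DESeq2 called 1, *Tal1*. The median log2 fold change of the 7 was 1.42, and it was 0.15 with mouse 2 alone. *Tcf7l2* was at 6.84, 8.08 and 4.72 CPM in WT and 62.4, 6.56 and 64.1 CPM in *Snx14*-KO cerebella. *Slc17a6* was at 30.3, 29.5 and 27.2 CPM in WT and 102, 23.3 and 105 CPM in *Snx14*-KO cerebella. These genes of the list were high in mice 1 and 3 and near WT in mouse 2. Other members, such as *Nkx2-2* at 14.9, 15.8 and 10.6 CPM and *Gata2* at 2.58, 2.48 and 2.76 CPM in *Snx14*-KO cerebella, did not set mice 1 and 3 apart from mouse 2. The 10 striatal genes summed to 267, 270.3 and 301 CPM in WT and 267, 266 and 204 CPM in *Snx14*-KO cerebella, which did not set mice 1 and 3 apart. Of the 8 tested, 5 had a higher and 3 a lower mean, with a median log2 fold change of 0.60, and of -0.17 with mouse 2 alone. *Drd2* was at 1.11, 0.635 and 0.376 CPM in WT and 6.26, 0.551 and 6.23 CPM in *Snx14*-KO cerebella, and *Ppp1r1b*, the most abundant of the list, at 208, 208 and 214 CPM and 189, 203 and 134 CPM in the same order. Markers of cortical excitatory neurons did not follow, with *Tbr1* at 0.778, 0.635 and 0.967 CPM in WT and 0.622, 1.21 and 0.325 CPM in *Snx14*-KO cerebella. Summed over the cortical GABAergic list, the levels were 2399, 2384 and 2303 CPM in WT and 2368, 2390 and 1970 CPM in *Snx14*-KO cerebella. In the WT cortices the same list summed to only 1010 to 1030 CPM. Its sum thus cannot show cortical interneuron transcripts in a cerebellum. The 10 meningeal fibroblast genes were all higher, at a sum of 440.3 to 486 CPM in *Snx14*-KO against 164 to 337 CPM in WT cerebella, mouse 2 included, with 0 of them called by edgeR and 6 by DESeq2. The 6 granule cell genes were all lower in the mean, at a sum of 3608, 3531 and 3076 CPM in WT and 2577, 3183 and 2576 CPM in *Snx14*-KO cerebella, with 0 called by edgeR and 1 by DESeq2. Of the 7 Purkinje cell genes 6 were lower, at a sum of 12910, 13450 and 12220 CPM in WT and 12110, 12640 and 10050 CPM in *Snx14*-KO cerebella, with 0 called by either tool. For both lists mice 1 and 3 were below every WT cerebellum and mouse 2 was within the WT range. The part of these markers in the precursor values was not tested.

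The more abundant precursors differed less. *Scg2* was at 145, 109.6 and 127 CPM in WT and 215, 113 and 192 CPM in *Snx14*-KO cerebella, and *Vgf* at 24.4, 14.1 and 18.6 CPM in WT and 42, 16.5 and 31.6 CPM in *Snx14*-KO cerebella. For both, mice 1 and 3 were above all WT cerebella and mouse 2 was inside the WT range. Their log2 fold changes were 0.46 and 0.67, and with mouse 2 alone they changed sign, to -0.16 and -0.19. *Nxph4*, at 22.3, 13 and 22.7 CPM in *Snx14*-KO cerebella, and *Pnoc*, at 5.02, 1.6 and 3.9 CPM, were likewise highest in mice 1 and 3. Their values were 0.34 and 0.64 with all mice and -0.24 and -0.50 with mouse 2 alone. None of these 4 passed (edgeR adjusted p = 0.617, 0.619, 0.775 and 0.776 in the same order). The 12 immediate early genes, which neuronal activity induces, were highest in mouse 2 by sum. They reached 205, 125 and 145 CPM in WT and 104, 253 and 128.5 CPM in *Snx14*-KO cerebella. Of the 11 tested, 7 had a higher and 4 a lower mean, and DESeq2 called 1, *Egr3*. Their part in the precursor values was not tested.

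*Adcyap1*, *Nts* and *Cck* differed from this pattern. *Adcyap1* was at 11.8, 11 and 15.3 CPM in *Snx14*-KO cerebella, all above the WT libraries, with a log2 fold change of 0.56 (SE 0.181, edgeR adjusted p = 0.418). *Nts* was at 1.67, 2.21 and 1.41 CPM, all above WT and highest in mouse 2, with a log2 fold change of 0.83 (SE 0.323, edgeR adjusted p = 0.521). *Cck* was at 69.8, 62.8 and 60.1 CPM, where mouse 3 fell below the highest WT cerebellum, with a log2 fold change of 0.30 (SE 0.109, edgeR adjusted p = 0.483). With mouse 2 alone these values were 0.35, 1.15 and 0.26.

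*Pomc* was at 5.07, 1.88 and 1.03 CPM in *Snx14*-KO cerebella, so that mouse 1 stood alone. That library also held the pituitary transcripts *Prl* (7.22, 0 and 0 CPM in the 3 *Snx14*-KO cerebella) and *Gh* (7.12, 0.11 and 0.108 CPM). In WT cerebella *Gh* was at 0.167, 1.62 and 4.99 CPM, so that WT mouse 3 held it too. The *Pomc* log2 fold change of 0.82 (SE 0.507, edgeR adjusted p = 0.776) turned to -0.05 without mouse 1. The part of the pituitary transcripts in it was not tested.

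*Penk* and *Chgb* were the precursors with the highest TPM in WT cerebellum. In *Snx14*-KO cerebella *Penk* was at 116, 118 and 99.1 CPM and *Chgb* at 248, 349 and 288 CPM. Both overlapped WT, with log2 fold changes of -0.11 (SE 0.0981, edgeR adjusted p = 0.895) and -0.29 (SE 0.155, edgeR adjusted p = 0.73). The other 7 tested precursors (*Npy*, *Nmb*, *Gal*, *Nppc*, *Npb*, *Pthlh* and *Chga*) had log2 fold changes between -0.02 and 0.59, with edgeR adjusted p of at least 0.924. *Npy* was at 17.5, 16.6 and 13.3 CPM, *Chga* at 109, 83.8 and 99.5 CPM and *Nppc* at 4.25, 3.97 and 4.55 CPM in *Snx14*-KO cerebella. *Nmb*, *Pthlh*, *Gal* and *Npb* lay at 1.19 to 1.53, 1.71 to 2.63, 0.622 to 0.937 and 0.487 to 1.05 CPM. All 7 overlapped the WT cerebella. Of the untested precursors not named above, *Crh* was at 0.43, 0.386 and 0.379 CPM, *Calca* at 0.717, 0.331 and 0.542 CPM and *Trh* at 0.287, 0 and 0.0542 CPM. *Nppa* was at 0.526, 0.441 and 0.325 CPM and *Ucn* at 0, 0 and 0.0542 CPM, close to the limit of a count of 0.

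**Figure D4:**
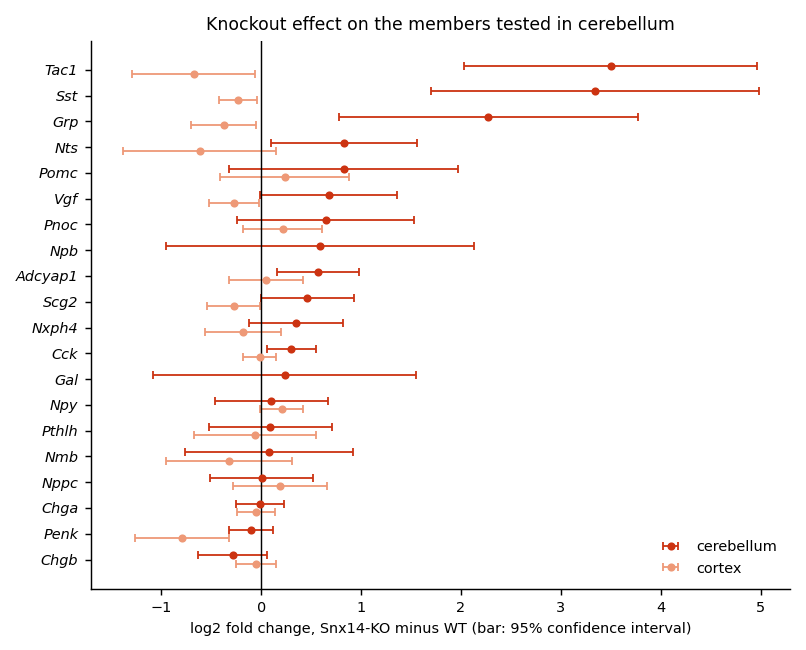
Log2 fold change between *Snx14*-KO and WT in cerebellum (red) and cortex (orange) for the 20 precursors tested in cerebellum, as points with 95% confidence intervals from edgeR, where *Gal* and *Npb* were not tested in cortex. The largest values are those of *Tac1* (3.5) and *Sst* (3.34) in cerebellum, and *Penk* has the lowest value in cortex (-0.79).

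None of the genes of peptide processing, dense-core vesicles or peptide receptors was called by edgeR in *Snx14*-KO cerebella. At an unadjusted p under 0.05, 3 of 10 processing genes, 1 of 7 vesicle genes and 7 of 25 receptors were higher and 0 were lower, against 5.78% and 2.37% of all genes. Receptors such as *Sstr4*, with 3, 3 and 3 counts in WT and 24, 11 and 15 in *Snx14*-KO cerebella, passed the filter only through the knockouts. The receptor count and median are thus not read against the background. DESeq2 called the receptor gene *Npy1r*, which was at 0.389, 0.981 and 0.591 CPM in WT and 4.4, 1.93 and 6.01 CPM in *Snx14*-KO cerebella. The median log2 fold change was 0.12 for processing, 0.00 for vesicle and 0.24 for receptor genes. With mouse 2 alone the receptor median was 0.08.

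In *Snx14*-KO cortex, no precursor passed the test, and those with the smallest unadjusted p were lower, with *Penk* and *Tac1* first by size. Of the 26 tested, 0 were called by edgeR and 0 by DESeq2, where edgeR called 0.00548% of all 18255 genes, the 1 gene again being *Snx14*, and DESeq2 called 0.0164% higher, with 3 genes higher and 6 lower. At an unadjusted p under 0.05, 0 were higher and 7 lower, against 2.24% and 2.26% of all genes. The count of 7 was 2 without WT cortex 1, 4 without WT cortex 3, 4 without *Snx14*-KO cortex 1 and 2 without *Snx14*-KO cortex 2, which also left 2 higher. It was 1 in the fit over all 12 libraries. The groups did not overlap for 3 precursors, all lower, against 4.67% of all genes lower and 4.57% higher. The median log2 fold change was -0.07 over the 26 and 0.00 over all genes.

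*Penk* was at 56.4, 105 and 49.2 CPM in WT and 39, 41.8 and 40.8 CPM in *Snx14*-KO cortices. All 3 *Snx14*-KO cortices lay below WT, and WT cortex 2 stood far above the rest. The log2 fold change was -0.79 (SE 0.216, edgeR adjusted p = 0.971), with an unadjusted p of 0.00327 from the same fit, and without WT cortex 2 it was -0.38 (edgeR adjusted p = 0.945). *Tac1* was at 17.1, 32.9 and 13.2 CPM in WT and 13.2, 10.1 and 16.3 CPM in *Snx14*-KO cortices, with WT cortex 2 again the highest. Its log2 fold change was -0.68 (SE 0.283, edgeR adjusted p = 0.996) and, without WT cortex 2, -0.20 (edgeR adjusted p = 1.000).

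WT cortex 2 was also the library with the highest striatal transcripts. The 10 striatal genes were all lower in *Snx14*-KO cortex, with a median log2 fold change of -0.65 that was -0.29 without WT cortex 2, and of which 0 were called by edgeR, 7 had an unadjusted p under 0.05 and 1 was called by DESeq2. *Adora2a*, an adenosine receptor gene of striatal neurons, was at 7.33, 24.7 and 4.78 CPM in WT and 5.44, 3.51 and 1.97 CPM in *Snx14*-KO cortices. *Pdyn*, a precursor that striatal neurons also express, was at 25.3, 35.6 and 27.1 CPM in WT and 28.1, 28.5 and 23.7 CPM in *Snx14*-KO cortices, where WT cortex 2 was the highest as well. The part of these transcripts in the precursor values was not tested. Meningeal genes, all higher in *Snx14*-KO with 0 called by edgeR or DESeq2, summed to 136, 88.6 and 105 CPM in WT and 132, 352 and 123 CPM in *Snx14*-KO cortices. Of these 10 genes, 7 had an unadjusted p under 0.05 in edgeR. Their median log2 fold change of 0.74 was 0.20 without *Snx14*-KO cortex 2.

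**Figure D5:**
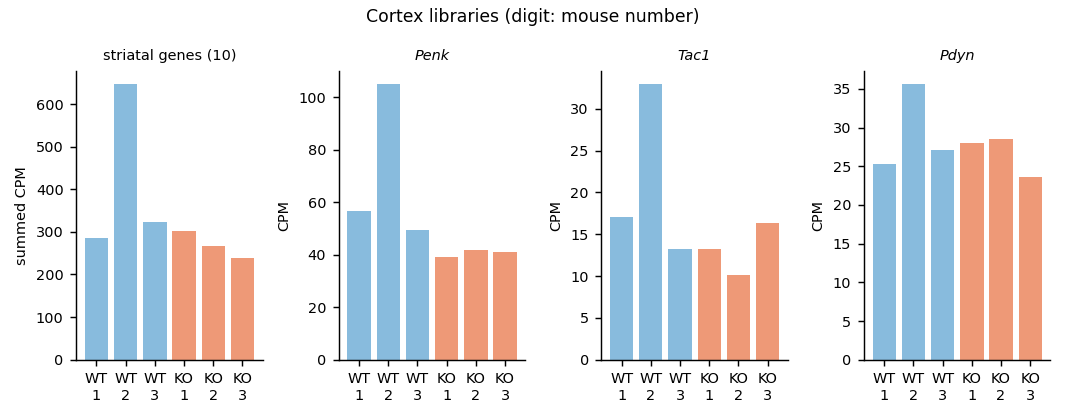
Summed CPM of the 10 striatal projection neuron genes and CPM of *Penk*, *Tac1* and *Pdyn* in the 3 WT (light blue) and 3 *Snx14*-KO (orange) cortices, 1 bar for each library. WT cortex 2 has the highest bar in each panel, with 646 CPM of the striatal genes and 104.8 CPM of *Penk*.

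The other precursors at an unadjusted p under 0.05 had smaller differences. *Sst* was at 256, 255 and 218 CPM in WT and 199, 191 and 229.8 CPM in *Snx14*-KO cortices, which overlapped, with a log2 fold change of -0.23 (SE 0.0878, edgeR adjusted p = 0.996). *Crh* was at 5.19, 5.6 and 6.14 CPM in *Snx14*-KO cortices, with a log2 fold change of -0.51 (SE 0.212, edgeR adjusted p = 0.996). *Grp* was at 7.69, 7.52 and 7.15 CPM, below all WT cortices, with a log2 fold change of -0.38 (SE 0.15, edgeR adjusted p = 0.996). *Scg2* was at 184, 140.2 and 178 CPM and *Vgf* at 222, 188 and 240.0 CPM, with log2 fold changes of -0.28 (SE 0.12, edgeR adjusted p = 0.996) and -0.28 (SE 0.116, edgeR adjusted p = 0.996). For *Crh*, *Scg2* and *Vgf* the WT and *Snx14*-KO libraries overlapped. Immediate early genes, which neuronal activity induces, summed to 1777, 713 and 1353 CPM in WT and 425, 1497 and 1095 CPM in *Snx14*-KO cortices. All 12 had a lower mean in *Snx14*-KO, with 0 called by edgeR or DESeq2 and 0 at an unadjusted p under 0.05, and their median log2 fold change of -0.43 was 0.03 without WT cortex 1. Their part in the values of *Vgf*, *Scg2* or any other precursor was not tested.

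*Nxph4*, at 4.0, 4.22 and 4.17 CPM in *Snx14*-KO cortices, lay below all WT cortices, with a log2 fold change of -0.18 (SE 0.174, edgeR adjusted p = 0.996). *Npy* was at 83.5, 66.4 and 69.7 CPM, with a log2 fold change of 0.20 (SE 0.0984, edgeR adjusted p = 0.996), and *Nts* at 2.69, 1.32 and 1.61 CPM, with -0.62 (SE 0.353, edgeR adjusted p = 0.996). *Cort* was at 8.13, 3.46 and 10.2 CPM in *Snx14*-KO cortices, a wide spread around the narrow WT range of 5.24 to 5.63 CPM, with a log2 fold change of 0.42 (SE 0.30, edgeR adjusted p = 0.996). The other 15 tested precursors had log2 fold changes between -0.32 and 0.23, with unadjusted p of at least 0.264 and groups that overlapped. Among them, *Cck* was at 383, 327 and 392 CPM, *Vip* at 62.9, 48.2 and 60.9 CPM, *Tac2* at 7.5, 6.04 and 6.2 CPM and *Cartpt* at 6.0, 5.65 and 5.31 CPM. *Chgb* was at 399, 375 and 408 CPM and *Chga* at 152, 136 and 136 CPM. *Adcyap1* was at 23.7, 15.8 and 25.2 CPM, *Pnoc* at 8.06, 6.8 and 6.38 CPM and *Nppc* at 6.44, 4.0 and 5.84 CPM. *Pomc*, *Calca*, *Nmb*, *Trh* and *Pthlh* lay at 1.25 to 1.56, 0.563 to 1.67, 1.13 to 1.75, 0.768 to 1.31 and 1.67 to 3.19 CPM in that order. *Ucn*, *Nppa*, *Gal* and *Npb*, which were not tested, lay at 0.0596 to 0.438, 0.125 to 0.656, 0 to 0.329 and 0 to 0.188 CPM. In the cortical comparison, 0 of the 10 processing, 7 vesicle and 34 receptor genes tested were called by edgeR or by DESeq2. At an unadjusted p under 0.05, 1 processing gene was higher, and 1 processing gene and 1 receptor gene were lower, against 2.24% and 2.26% of all genes.

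The difference between the knockout effects in the 2 tissues was tested in 1 fit over all 12 libraries, the same ones as in the comparisons above. Of 28 precursors tested, 0 were called by edgeR, where 0.0% of 19380 genes were called. At an unadjusted p under 0.05, 11 were higher, meaning a more positive effect in cerebellum, and 0 lower, against 3.97% and 1.71% of all genes. The count of 11 was 7 without *Snx14*-KO cerebellum 1 and 6 without *Snx14*-KO cerebella 1 and 3. The largest differences were those of *Vip* at 4.16 (SE 0.808, edgeR adjusted p = 0.167) and *Tac1* at 4.16 (SE 0.791, edgeR adjusted p = 0.167). *Sst* followed at 3.56 (SE 0.752, edgeR adjusted p = 0.202), *Grp* at 2.64 (SE 0.593, edgeR adjusted p = 0.27) and *Pdyn* at 2.63 (SE 0.655, edgeR adjusted p = 0.396). *Trh*, which had few counts in cerebellum, was at 2.39 (SE 1.53, edgeR adjusted p = 0.961) and *Cartpt* at 2.26 (SE 0.696, edgeR adjusted p = 0.518). *Nts*, *Crh*, *Vgf*, *Scg2* and *Penk* were at 1.43, 1.59, 0.94, 0.72 and 0.67. DESeq2 called 3, *Tac1*, *Vip* and *Grp*, where it called 0.201% of all genes higher. Without *Snx14*-KO cerebellum 2, edgeR called 8, namely *Cartpt*, *Grp*, *Pdyn*, *Scg2*, *Sst*, *Tac1*, *Vgf* and *Vip*, where it called 251 genes higher and 6 lower of 19822. Without *Snx14*-KO cerebella 1 and 3 it called 0, and the differences were 1.86 for *Vip*, 2.02 for *Tac1*, 0.63 for *Sst*, 1.58 for *Grp*, 0.38 for *Pdyn* and 0.30 for *Cartpt*. For *Penk* it was 0.26 without WT cortex 2. The other 17 precursors, *Trh* included, lay between -1.01 and 2.39, with edgeR adjusted p of at least 0.913.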

How the data were processed

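RNA was extracted from frozen cerebellum and cerebral cortex with TRIzol and sequenced as paired-end reads after a strand-specific library preparation. The authors aligned the reads to GRCm38 with STAR, and the deposited tables hold their raw counts per gene from featureCounts (Subread 2.0.1) with GENCODE vM21 names. Per the file headers, a read pair was counted for each gene it overlapped, without regard to strand and without multimapping reads, so overlapping genes share reads. A further 26345 features that are not genes were left out.

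Libraries were grouped by their titles. Counts were normalized by TMM and tested with edgeR 4.0.16 (quasi-likelihood F test in R 4.3.3, default filter on low counts, Benjamini-Hochberg adjustment over all genes tested), separately for each pair of groups. Calls needed an adjusted p under 0.05 together with a log2 fold change beyond 0.5 in either direction. The tissue difference was an interaction term over all 12 libraries, called at an adjusted p under 0.05 alone. TPM was computed from the counts and exon lengths. Precursors with a mean of at least 1 TPM in any group were described by library. DESeq2 1.42.0, RLE size factors, no filter, a shared fit over 12 libraries, a replicate block and leaving out libraries were the alternatives. Leaving out *Snx14*-KO cerebella 1 and 3 together was chosen after seeing the data. Where 1 *Snx14*-KO cerebellum was left, it was assumed to vary like the WT libraries. The edgeR tests between pairs of groups were also run on simulated counts, and the outcome is not given here. The members and lists were chosen with earlier results of these data known.

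The titles number the mice alike in cerebellum and cortex, which was read as the same mouse and gave the pairing of the tissues. The same-mouse correlations of deviations from the group means were 0.103, 0.113 and 0.077 in WT and 0.295, 0.025 and 0.083 in *Snx14*-KO, against -0.103 to -0.003 in WT and -0.221 to 0.138 in *Snx14*-KO for mice of different numbers, so that *Snx14*-KO cerebella 2 and 3 correlated best with a cortex of another number.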

Additional observations from a re-analysis of the deposited data

Results flagged for a closer look

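The values of *Grp* lay on opposite sides of WT in the 2 tissues, although neither side passed by edgeR (adjusted p = 0.36 in cerebellum and 0.996 in cortex). All 3 *Snx14*-KO cerebella were above all WT cerebella, and all 3 *Snx14*-KO cortices were below all WT cortices. The effect in cerebellum minus that in cortex was 2.64 on the log2 scale, and the test of this difference did not pass by edgeR (adjusted p = 0.270). DESeq2 called it. The WT cerebella held 2, 2 and 10 counts of *Grp*, against 40, 11 and 23 in the *Snx14*-KO cerebella, so the cerebellar side rests on few reads. Mouse 2 exceeded the highest WT cerebellum by 0.607 against 0.537 CPM only, and mice 1 and 3 are the libraries with more midbrain transcripts, whose part in the value was not tested.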

How the results depend on the processing

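Counts of calls in the *Snx14*-KO comparisons moved with the filter on low counts and the tool and, in cerebellum and for the tissue difference, with the libraries kept. In cerebellum, where edgeR called 0 genes higher and 1 lower, 329 and 18 were called without the filter, 153 and 11 by DESeq2 and 43 and 2 in the fit over 12 libraries. Of the precursors, 5, 2 and 3 were then called higher. With 1 library left out, 0 to 244 genes were called higher, 1 to 10 lower, and 0 to 5 precursors higher, the highest counts being those without *Snx14*-KO cerebellum 2. *Pdyn* and *Vip* entered that fit only through *Snx14*-KO cerebella 1 and 3. In cortex, 85 genes were called higher and 64 lower without the filter, 3 and 6 by DESeq2, 2 lower in the fit over 12 libraries, and 1 to 2 lower with 1 library left out. Of the precursors, 2 (*Penk* and *Tac1*) were called lower without the filter. For the tissue difference, 373 genes were called higher and 45 lower without the filter, 39 and 1 by DESeq2, and 0 to 251 and 0 to 6 with 1 library left out. Of the precursors, 9, 3 and 0 to 8 were called higher in turn. Between the WT regions, 1 precursor was called higher by DESeq2 and 1 to 3 with 1 library left out. The cause of these shifts was not tested.

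The log2 fold changes in cerebellum changed sign without *Snx14*-KO cerebella 1 and 3 for *Pnoc* (-0.50), *Nxph4* (-0.24), *Scg2* (-0.16) and *Vgf* (-0.19), and for *Pthlh* (-0.18) and *Nppc* (-0.10), which were near 0 before. For *Pomc* they ranged from -0.053 to 1.20 with 1 library left out. In the WT regions, 153 of 156 values of the precursors with 1 library left out kept their direction and call, and 3 lost the call.

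With the mouse as a replicate block, 2 precursors were again called higher and 19 lower between the WT regions, and 0 were called for the tissue difference. Within each tissue the numbers of WT and *Snx14*-KO mice are only names. With that replicate block 0 precursors were called in cerebellum or cortex, and the pairing changed no other call of a precursor. Few reads stand behind the precursors near the limit that a count of 0 allows.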
